A study of Mus musculus with 12 samples.

Results

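The comparison described here is that of the liver transcriptome on CDAHFD against chow in mice that lack PPARα in hepatocytes, across all genes. Its members are the 5 KO libraries among the 12 libraries of the series, 3 from KO mice on CDAHFD (KO CDAHFD) and 2 from KO mice on chow (KO chow), taken by the genotype and diet of their labels. The 7 WT libraries, 4 on chow (WT chow) and 3 on CDAHFD (WT CDAHFD), served for the comparison with mice that keep the receptor. All mice were adult C57BL/6J males with floxed Ppara alleles, after 6 weeks of diet. KO mice were PPARa fl/fl AlbuminCre Tg/+ and WT mice were PPARa fl/fl AlbuminCre +/+, so the floxed alleles are shared by all groups and only KO mice carry the Cre transgene. The albumin promoter drives Cre in hepatocytes, and the other cells of the liver keep Ppara. CDAHFD (A06071302) is a choline-deficient, L-amino acid-defined diet high in fat. Poly-A selected RNA was sequenced and reads were counted per gene.

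PPARα is a nuclear receptor that is activated by fatty acids and, as a heterodimer with RXR, switches on the hepatocyte's programme for fatty acid uptake, mitochondrial and peroxisomal oxidation and ketone body synthesis. Without choline the liver makes too little phosphatidylcholine to package triglyceride into very low density lipoprotein (VLDL), so that fat is retained, and steatosis, inflammation and fibrosis follow in mice on this diet. Hepatocytes along the lobule differ in function. Those next to the central vein receive Wnt signals and make glutamine, while those around the portal tract make urea.

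Total counts ran from 33138414 to 40201211 in the 5 KO libraries. Albumin (Alb), the defining hepatocyte product, was at 55082 and 64173 CPM (counts scaled to the depth of the library) in KO chow and 35231, 41513 and 30382 CPM in KO CDAHFD, and all 31 genes of a list of hepatocyte factors and secreted proteins were detected well enough to be tested. The labels name no batch. A score of clock genes, computed per library as a measure of time of day, was 1.161 and -0.922 in KO chow and 0.496, 0.41 and -3.143 in KO CDAHFD, so KO CDAHFD replicate 3 stands apart from the other replicates of its group. On the 2 first principal components (67.1% and 7.9% of the variance) the KO chow libraries did not lie with WT chow. On the first component KO chow was at 39.2 and 30.9, WT chow between -126.4 and -88.2, WT CDAHFD between 48.8 and 61.4 and KO CDAHFD between 61.1 and 70.5. The KO comparison therefore starts from a liver that already differed from WT chow. The KO groups did not overlap on the first component. They were also separated by the second component, at 66.6 and 39.5 on chow against -24.4 to -0.8 on CDAHFD.

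Ppara itself (ENSMUSG00000022383, chromosome 15 from 85734983 to 85802819) was at 14.4 and 38.7 CPM in KO chow and 36.3, 20.7 and 51.9 CPM in KO CDAHFD, below every WT library (96.2 to 238 CPM in WT chow and 59.5 to 75.5 CPM in WT CDAHFD). The KO groups overlapped, with a log2 change of 0.45 (standard error (SE) 0.47, adjusted p = 0.617, edgeR's quasi-likelihood test). Without KO chow replicate 1 it was -0.06, with a single chow library left. Reads from all exons and all cell types of the liver are summed, so they are not a measure of the deleted part alone.

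Of 17358 genes tested, 1075 (6.19%) changed with CDAHFD in KO liver at an adjusted p under 0.05, 652 higher (3.76%) and 423 lower (2.44%). Of these, 468 rose and 125 fell at least 2-fold. Both KO chow libraries lay below all 3 KO CDAHFD libraries, or above them, for 1073 of the 1075 genes, while 19.9% and 19.2% of all genes tested did not overlap, with KO CDAHFD higher or lower. Changes are given below as log2 fold changes of KO CDAHFD against KO chow, unless said otherwise. For part of the genes their SE and adjusted p are added, and levels are CPM scaled by TMM. The count of calls rests on few chow libraries and on the scaling. It fell to 233 when KO chow replicate 1 was left out and to 300 when replicate 2 was, and with library size as the only scaling 90.0% of the calls were higher, against 60.7% with TMM. None of the 1075 genes turned sign in those of the 20 alternative fits that tested it. Where the KO groups do not overlap, leaving out a library could hardly turn the sign, so this is a weak check. Of the 1075 genes, 116 (10.8%), 76 higher and 40 lower, passed in each fit. Gene lists are described below by their called members, and these counts rest on the same libraries. Of 35 counts of 3 or more members called in one direction, 12 went to 0 without 1 of the KO libraries, and 34 were at their lowest, ties included, without a KO chow library. Of 29 counts of 1 or 2 members, 21 went to 0.

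In WT liver the same diet changed 8863 genes (51.1%), 4522 higher (26.1%) and 4341 lower (25.0%). The WT and KO comparisons share no library. Of the 1075 genes, 802 (4.62% of all genes tested, 74.6% of the KO calls and 9.05% of the WT calls) were also called in WT in the same direction, 101 (0.582% of genes tested, 9.4% of the KO calls) were called in WT in the opposite direction and 172 (0.991% of genes tested) were not called in WT. The size of the diet effect itself differed between KO and WT for 4011 genes (23.1%, with 8.63% more positive and 14.5% more negative in KO). Among the 1075 genes it differed for 495 (2.85% of all genes tested), of which 299 changed less in KO in the same direction, 26 changed more, and 170 had opposite signs. Members of the pericentral list rose in KO while the median of that list lay near 0 in WT. Among the P450 and phase II genes called in opposite directions, 7 fell in KO and rose in WT and 9 did the reverse, while all 5 such NRF2 targets fell in KO and rose in WT. Macrophage and duct genes rose in both, most of them by less in KO.

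**Figure D1:**
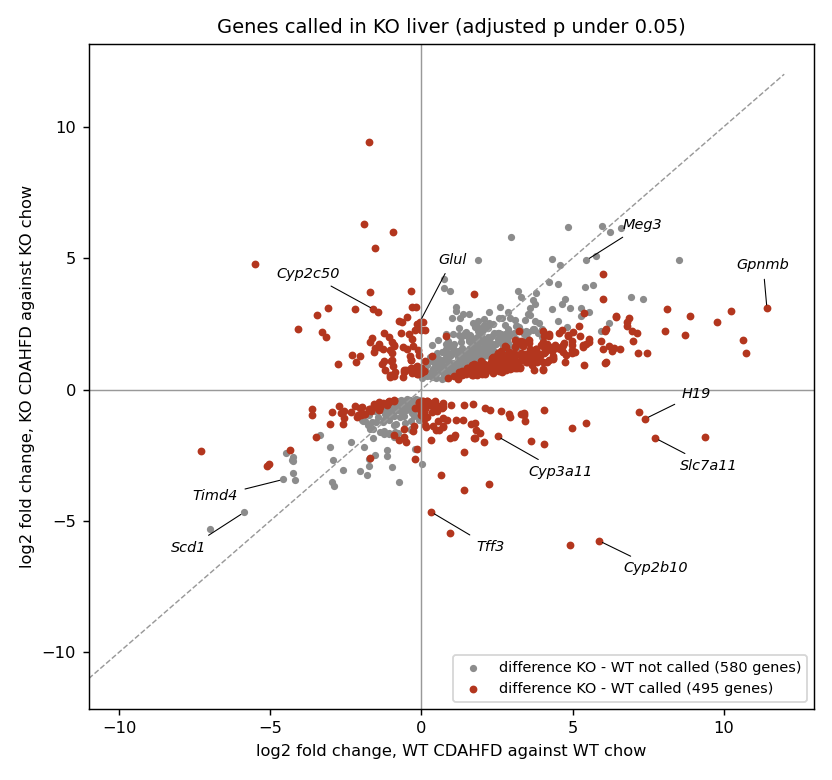
Diet effect in KO liver (vertical axis, log2 fold change of KO CDAHFD against KO chow) plotted against that in WT liver (horizontal axis, WT CDAHFD against WT chow) for the 1075 genes called in KO liver, 1 point per gene. The dashed line marks equal changes, and the 495 genes in red have a called difference between KO and WT. Most genes in the upper right lie below the line, while Cyp2c50 rose in KO and fell in WT, and Cyp2b10, Slc7a11, H19 and Cyp3a11 fell in KO and rose in WT.

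**Figure D2:**
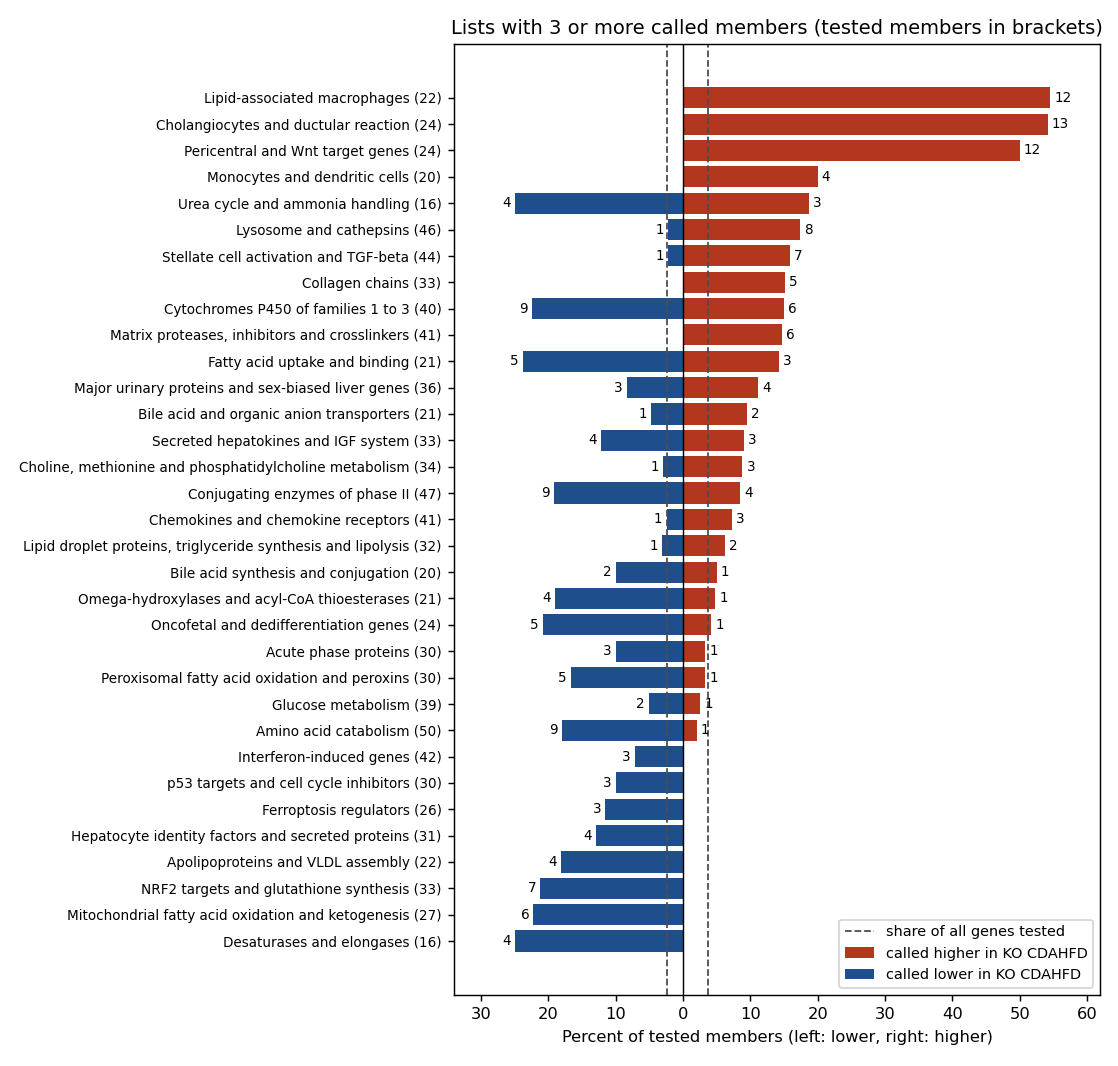
Share of the tested members of each gene list (percent, horizontal axis) called higher (red, to the right) or lower (blue, to the left) in KO CDAHFD against KO chow, for the 33 lists with 3 or more called members. The number of called members stands at each bar, the number tested is in brackets, and the dashed lines mark the shares among all genes tested, 3.76% higher and 2.44% lower. The macrophage, duct and pericentral lists reach furthest to the right, with 12 of 22, 13 of 24 and 12 of 24 members.

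Genes of pericentral hepatocytes and Wnt signalling rose in KO liver. Of 24 genes tested, 12 were called higher and 0 lower, and the median log2 fold change was 0.90, against -0.006 over all genes tested. In WT liver 8 were called higher and 7 lower, with a median of 0.06, and the diet effect was more positive in KO than in WT for 13 genes and more negative for 3. Leaving out a KO library left 6 to 11 of the 12 calls, and 6 passed each time. Where the DNA before the start of these genes holds a copy of the TCF/LEF motif CTTTGAT, through which Wnt signals act on transcription, the window is shown here. The motif was searched on both strands in the 250 bases before each RefSeq start (GRCm38.p6) and is in 3.21% of 32851 such windows. Genes are counted as holding it if any of their windows does, so shares of genes and of windows are unlike measures. RefSeq windows were at hand for 15 of the 24 genes, 3 of which hold it, and for 8 of the 12 called genes, 3 of which hold it (37.5%). These are Sp5 (chr2:70474673-70474922, plus strand, 104 bases before the start), Lect2 (chr13:56548539-56548788, minus strand, 32 bases before) and Slc1a2 (chr2:102706188-102706437, plus strand, 207 bases before one of its starts). The motif or its reverse complement is in capitals, and a match is a description of the letters and not a binding site.
Sp5: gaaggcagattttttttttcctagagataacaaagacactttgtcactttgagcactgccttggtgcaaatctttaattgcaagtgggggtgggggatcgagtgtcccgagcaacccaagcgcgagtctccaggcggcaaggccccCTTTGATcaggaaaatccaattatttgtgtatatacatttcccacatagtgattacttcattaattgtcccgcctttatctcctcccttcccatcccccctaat
Lect2: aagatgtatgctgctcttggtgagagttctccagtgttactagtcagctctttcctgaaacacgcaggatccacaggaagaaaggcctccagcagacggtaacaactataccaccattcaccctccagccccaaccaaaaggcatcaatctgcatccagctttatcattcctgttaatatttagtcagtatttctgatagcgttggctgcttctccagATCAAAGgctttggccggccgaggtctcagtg
Slc1a2: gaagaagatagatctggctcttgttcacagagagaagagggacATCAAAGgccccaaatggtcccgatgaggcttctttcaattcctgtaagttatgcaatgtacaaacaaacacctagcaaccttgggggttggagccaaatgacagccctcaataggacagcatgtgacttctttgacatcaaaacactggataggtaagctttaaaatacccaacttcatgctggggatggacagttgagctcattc

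Glul (ENSMUSG00000026473, chromosome 1 from 153899944 to 153909723), the glutamine synthetase made by a narrow ring of cells at the central vein, was at 174 and 199 CPM in KO chow and 1120.5, 1033 and 1205 CPM in KO CDAHFD. All 3 CDAHFD libraries stood above both chow libraries, with a log2 change of 2.59 (SE 0.14, adjusted p = 1.99e-06). In WT liver Glul was between 1061 and 1206 CPM on chow and between 1066 and 1144 CPM on CDAHFD, a change of -0.04, and the difference between the genotypes was 2.63 (adjusted p = 1.07e-06). The 3 KO CDAHFD libraries lay in or next to the range of the WT libraries, and the 2 KO chow libraries lay apart from all others. Rhbg, an ammonium transporter of the same cells, rose from 0.68 and 0.315 CPM to 6.67, 5.77 and 6.23 CPM (3.65, SE 0.35, adjusted p = 1.55e-04), and Slc1a2, a glutamate transporter, from 20.6 and 26.8 CPM to 103, 75.6 and 245 CPM (2.58, SE 0.45, adjusted p = 0.00717). KO CDAHFD replicate 3 had the highest Slc1a2 level of all 12 libraries. Sp5, a transcription factor induced by Wnt, rose from 0.68 and 0.922 CPM to 4.27, 4.12 and 3.38 CPM (2.28, SE 0.33, adjusted p = 0.00278).

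Axin2, a feedback inhibitor of Wnt signalling, was at 9.65 and 11.3 CPM in KO chow and 30.6, 26.8 and 18.5 CPM in KO CDAHFD and rose by 1.27 (SE 0.31, adjusted p = 0.0325). Its WT change was 0.5 (adjusted p = 0.11), and the difference between genotypes did not pass (0.77, adjusted p = 0.185). Among pericentral enzymes, Cyp2e1, which oxidises ethanol, went from 969 and 1497 CPM to 3941, 4571 and 4614 CPM, a rise of 1.83 (SE 0.28, adjusted p = 0.00409) that is opposite to its WT change (-0.96, adjusted p = 0.00343). Cyp1a2, which oxidises caffeine, went from 86 and 111 CPM to 425, 503 and 354 CPM (2.11, SE 0.19, adjusted p = 1.07e-04, with -0.42 in WT). Neither gene overlapped between the KO groups. Tbx3, a transcription factor of pericentral hepatocytes, rose by 1.55 in KO and changed by -1.28 in WT, though its reads cannot be told by strand from those of Tbx3os1. Lect2, a secreted protein of hepatocytes, was at 108 and 104 CPM and 222, 256 and 199 CPM (1.09, SE 0.16, adjusted p = 0.00265).

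**Figure D3:**
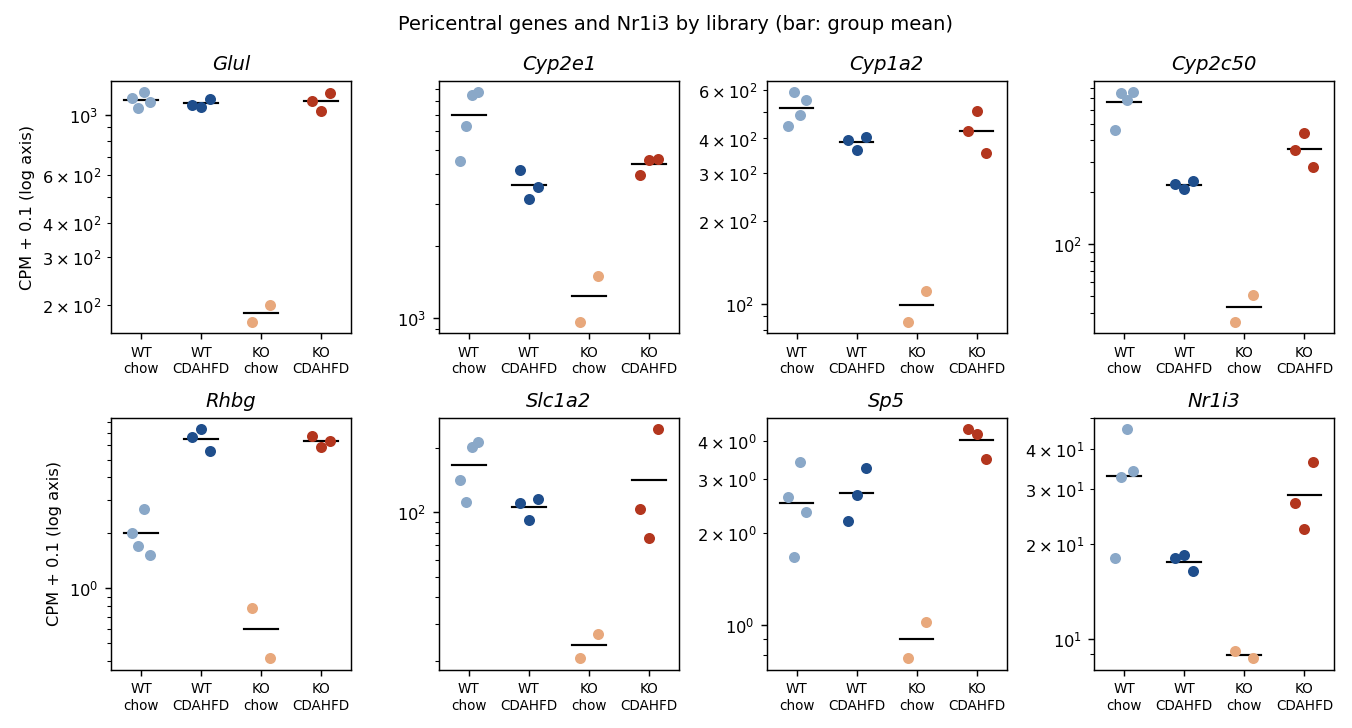
CPM of pericentral genes and of Nr1i3 in each of the 12 libraries on a log axis (0.1 added), with 1 point per library and a bar at the group mean. In all 8 panels both KO chow libraries lie below every KO CDAHFD library and below every WT library.

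Of 13 Cyp2c genes tested 3 were called higher and 2 lower, and the receptor gene Nr1i3 rose. Cyp2c50 was at 35.5 and 50.5 CPM in KO chow and 352, 439.5 and 281 CPM in KO CDAHFD, without overlap, a log2 change of 3.05 (SE 0.27, adjusted p = 1.07e-04) against -1.58 in WT (difference 4.64, adjusted p = 2.78e-06). Cyp2c37 rose from 5.14 and 12.3 CPM to 59.3, 77 and 88 CPM (3.1, SE 0.37) and Cyp2c54 by 2.19 (SE 0.40), while both fell in WT (-3.09 and -3.28). These 3 genes are close paralogs, and reads could be exchanged among them. Nr1i3, the xenobiotic receptor CAR, was at 9.08 and 8.61 CPM and 27, 22.3 and 36.2 CPM and rose by 1.69 (SE 0.31, adjusted p = 0.01), with a fall in WT (-0.9). Part of its reads can belong to the overlapping Tomm40l.

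The cytochromes P450 of families 1 to 3 as a whole moved in both directions. Of 40 tested, 6 were called higher and 9 lower, with a median of -0.25 (3 to 6 higher and 4 to 9 lower with a KO library left out), and the diet effect differed between KO and WT for 27 (18 more positive and 9 more negative in KO). Cyp2b10 (ENSMUSG00000030483, chromosome 7 from 25897620 to 25926624), the standard target of CAR, had 101 and 313 counts in KO chow (2.75 and 7.59 CPM) and 3, 8 and 0 counts in KO CDAHFD (0.0727, 0.214 and 0 CPM). Every chow library was above every CDAHFD library, and the log2 change of -5.76 (SE 0.74, adjusted p = 0.00346) passed in all alternatives. WT chow had 0 counts in all 4 libraries, which allows up to 3 counts in each by counting error alone, and WT CDAHFD had 0.175 to 0.214 CPM. Cyp3a11, the main drug-oxidising P450 of mouse liver and a target of the receptor PXR, went from 3839 and 3152 CPM to 822, 1052 and 1164 CPM (-1.79, SE 0.16, adjusted p = 1.07e-04). In WT it rose, from between 266 and 309 CPM to between 1569 and 1831 CPM (2.52), so that all 3 KO CDAHFD libraries were above WT chow and below WT CDAHFD. Cyp2c55 fell by 1.86 in KO and rose by 1.79 in WT. Cyp2c29 fell in both genotypes (-2.32 in KO and -4.35 in WT).

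Of 47 conjugating enzymes of phase II, 4 were called higher and 9 lower (median -0.21), with 0 higher and 1 lower without KO chow replicate 1. Ugt1a9, a glucuronosyltransferase, fell from 62.2 and 61.9 CPM to 7.73, 6.58 and 15.2 CPM (-2.66, SE 0.37, adjusted p = 0.00231), although its exons are shared with other Ugt1a genes. Gsta1, a glutathione transferase, fell from 42.3 and 37 CPM to 14.2, 21 and 13.7 CPM (-1.28, adjusted p = 0.00726), where WT rose from at most 0.598 CPM by 5.43. In the other direction Sult2a8, a hepatic sulfotransferase, rose from 25.4 and 34 CPM to 118, 168 and 72.7 CPM (2.01, SE 0.33, adjusted p = 0.00517) and fell in WT (-3.17). Its KO CDAHFD libraries remained below all WT chow libraries (931 to 1780.3 CPM).

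Targets of NRF2, the transcription factor of the oxidative stress response, gave 7 calls lower and 0 higher among 33 tested (median -0.22). In WT liver 18 were called higher and 5 lower (median 0.49), and the diet effect was more negative in KO for 18 and more positive for 4. Slc7a11, the cystine importer that feeds glutathione synthesis, was at 23.8 and 30.9 CPM in KO chow and 6.98, 6.58 and 9.11 CPM in KO CDAHFD. The chow libraries were the highest of the series and the fall was -1.85 (SE 0.25, adjusted p = 0.0017), where WT rose from at most 0.0917 CPM to between 7.91 and 12.1 CPM. Srxn1, which restores oxidised peroxiredoxins, fell from 267 and 286 CPM to 157, 180.0 and 143 CPM (-0.79, SE 0.15, adjusted p = 0.0112) against 2.27 in WT. Abcc4, an efflux pump, fell by 1.64 (adjusted p = 0.00817) and Cbr3, a carbonyl reductase, fell by 0.79 (adjusted p = 0.036), both with a rise in WT (1.94 and 4.06). The call of Cbr3 was lost in 11 of the 20 alternatives and that of Abcc4 in 2. Hmox1 (heme oxygenase) and Gclc, which starts glutathione synthesis, were not called in KO (-0.33, adjusted p = 0.447, and -0.33, adjusted p = 0.28). The number of NRF2 targets called lower ran from 3 to 6 with a KO library left out.

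A list of oncofetal and dedifferentiation genes had 5 members called lower and 1 higher among 24, with 1 lower and 0 higher without KO chow replicate 2. The median of the list was 0.03, with 12 members above 0 and 12 below, so the falls given here are those of single genes. Abcc4, counted among the NRF2 targets above, is also 1 of the 5. Tff3, a trefoil factor of mucosal epithelia, was at 58.5 and 32.7 CPM in KO chow and at 1.02, 2.3 and 2.09 CPM in KO CDAHFD (-4.66, SE 0.67, adjusted p = 0.00263). Only the KO chow libraries were high, since the WT libraries ran from 0.504 to 3.57 CPM. H19, an imprinted fetal RNA, was at 39.2 and 47.5 CPM in KO chow and 22.5, 14 and 23.7 CPM in KO CDAHFD (-1.11, SE 0.26, adjusted p = 0.0273), and WT rose from at most 0.117 CPM to between 7.77 and 12.1 CPM. Ly6d, a surface protein, was at 37.8 and 35 CPM in KO chow and 18.4, 19.6 and 22.5 CPM in KO CDAHFD (-0.85, adjusted p = 0.0165). Afp (alpha-fetoprotein) was not called in KO (0.54, adjusted p = 0.286). Beside this, 49 of 50 genes of mitosis lay below 0 in KO with a median of -0.66 and none called by edgeR, 18 lower at an unadjusted p under 0.05 and 0 by DESeq2. Without KO chow replicate 1 the median was -0.04, with 22 genes above 0 and 28 below. Their summed level was 1076 and 536.8 CPM in KO chow and between 302.1 and 616.2 CPM in KO CDAHFD, against at most 76.3 CPM in WT chow. In WT liver 48 of the 50 were called higher (median 3.84).

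In lipid synthesis the called genes included desaturases. Of 16 desaturases and elongases 4 were called lower and 0 higher (median -0.43, 2 to 5 lower with a KO library left out), and of 19 genes of fatty acid synthesis and the SREBP1 axis 2 were called lower (median -0.34, against -1.17 in WT, where 16 were called lower). Scd1 (ENSMUSG00000037071, chromosome 19 from 44394455 to 44407879), which makes monounsaturated fatty acids, was at 1781 and 3371 CPM in KO chow and 89.7, 96.1 and 116 CPM in KO CDAHFD. The groups were far apart, with a log2 change of -4.68 (SE 0.49, adjusted p = 3.92e-04), and the WT change was -5.87 (difference 1.19, adjusted p = 0.187, not called). Elovl2, Elovl5 and Fads1, which elongate and desaturate polyunsaturated fatty acids, fell, with log2 fold changes of -1.12, -0.99 and -0.61. Me1 (malic enzyme, a source of NADPH) fell from 104 and 97.8 CPM to 22.1, 22.1 and 31.4 CPM (-2.0, SE 0.29, adjusted p = 0.00299) and Acly (ATP citrate lyase) from 249 and 249 CPM to 159, 135 and 144 CPM (-0.77, SE 0.12, adjusted p = 0.00489). Scd1, Elovl2, Me1 and Acly passed in all alternatives. Fasn and Acaca, the enzymes of the chain itself, were not called (-0.35, adjusted p = 0.422, and -0.43, adjusted p = 0.271).

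Some genes of fatty acid oxidation, a programme that PPARα drives, fell in livers without hepatocyte PPARα. Of 27 genes of mitochondrial oxidation and ketogenesis 6 were called lower and 0 higher (median -0.26, against -0.69 in WT), and of 30 peroxisomal genes 5 were called lower and 1 higher (median -0.34, against -0.64 in WT). With a KO library left out, 1 to 3 mitochondrial genes and 0 to 5 peroxisomal genes were called lower. Cpt2, the inner carnitine palmitoyltransferase, was at 107 and 101 CPM in KO chow and 59.9, 62.5 and 57.5 CPM in KO CDAHFD. Its groups did not overlap and it fell by 0.79 (SE 0.11, adjusted p = 0.00256), with -0.74 in WT (difference -0.05, adjusted p = 0.85), and passed in all alternatives. Etfdh, Slc25a20 and Hadhb, which act in electron transfer, carnitine exchange and the oxidation steps, fell, with log2 fold changes of -0.63, -0.63 and -0.54. Their adjusted p values were 0.021, 0.0419 and 0.0298, and the calls were lost in 6, 11 and 9 of the 20 alternatives. Ehhadh, the peroxisomal bifunctional enzyme, fell from 290.4 and 298 CPM to 169.6, 168 and 202 CPM (-0.71, SE 0.16, adjusted p = 0.0228) and was not called in WT (0.1), with a called difference (-0.82, adjusted p = 0.0133). Acox3, a peroxisomal acyl-CoA oxidase, was the one peroxisomal gene to rise (0.58, adjusted p = 0.0419).

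Omega-hydroxylases and acyl-CoA thioesterases were called lower in 4 of 21 and higher in 1, with 1 lower without KO chow replicate 1. Cyp4a32 fell from 11.7 and 13.4 CPM to 1.77, 2.03 and 2.38 CPM (-2.61, SE 0.22, adjusted p = 7.53e-05), more than in WT (-1.7, difference -0.91, adjusted p = 0.0297). Acot1 (an acyl-CoA thioesterase) was at 131 and 81 CPM in KO chow, above all WT libraries (at most 23.8 CPM), and at 34.3, 34.4 and 20.9 CPM in KO CDAHFD (-1.83, SE 0.30, adjusted p = 0.00517). Cyp4a10 and Cyp4a14, the usual reporters of PPARα activity, were lower in each KO CDAHFD library than in each KO chow library but varied widely and were not called (-0.92, SE 0.55, and -1.26, SE 0.81). In WT chow Cyp4a14 ran from 11.9 to 357 CPM.

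Of 21 genes of fatty acid uptake and binding, 3 were called higher and 5 lower, with 1 higher and 0 lower without KO chow replicate 1. Cd36, a fatty acid translocase of macrophages, vessels and steatotic hepatocytes, rose from 123 and 184 CPM to 333, 287 and 379 CPM (1.11, SE 0.25, adjusted p = 0.0219), less than in WT (4.21, difference -3.09, adjusted p = 2.25e-05). Slc27a1, a fatty acid transporter, rose from 8.92 and 8.68 CPM to 26, 21.1 and 27.4 CPM (1.5, SE 0.18, adjusted p = 0.00108), with 1.83 in WT (difference -0.33, adjusted p = 0.336). Fabp1, the hepatocyte's fatty acid binding protein, fell from 1548 and 1195 CPM to 727, 952 and 761 CPM (-0.75, SE 0.17, adjusted p = 0.0234). Of 32 genes of lipid droplets and triglyceride turnover 2 were called higher and 1 lower. Plin4, a droplet coat protein whose gene is overlapped by Hdgfl2, rose by 2.01, and Mogat2, which makes diacylglycerol, by 2.1. Hsd17b13, a droplet enzyme of hepatocytes, fell from 845 and 804 CPM to 446, 526 and 434 CPM (-0.82, SE 0.14, adjusted p = 0.00614) and was not called in WT (0.1). Plin2, the main droplet coat protein of the liver, was not called (-0.49, adjusted p = 0.239).

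Secretion of lipid showed 4 of 22 apolipoprotein and VLDL assembly genes lower and 0 higher. None was called without KO chow replicate 1 or 2, and 1 without KO CDAHFD replicate 1 or 3. Apoa4, an apolipoprotein that rises in fatty liver, was at 966 and 943 CPM in KO chow and 497, 479 and 574 CPM in KO CDAHFD. It fell by 0.89 (SE 0.16, adjusted p = 0.00951) to or near the range of WT CDAHFD (433 to 566 CPM), which was reached from below in WT (3.41). Mttp, which loads triglyceride onto apolipoprotein B, fell from 269 and 279 CPM to 196, 205 and 183 CPM (-0.49, SE 0.11, adjusted p = 0.0271), and Tm6sf2, which acts in VLDL lipidation, fell by 0.76. In choline, methionine and phosphatidylcholine metabolism 3 of 34 genes were called higher and 1 lower, none of them without KO chow replicate 1 or 2. Mat2a, which makes S-adenosylmethionine, rose from 102 and 92.5 CPM to 209, 213 and 163 CPM (1.0, SE 0.20, adjusted p = 0.0131), with 1.06 in WT. Cth (cystathionine gamma-lyase) fell by 0.86. Bile acid synthesis gave 1 call higher and 2 lower among 20, the rise being that of Cyp8b1 (sterol 12-alpha-hydroxylase), from 75 and 94.1 CPM to 192, 154 and 151 CPM (0.97, adjusted p = 0.0194), against -1.31 in WT.

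Among markers of cells other than hepatocytes, genes of lipid-associated macrophages rose. These are the macrophages that gather around dying, fat-laden hepatocytes. Of 22 genes, 12 were called higher and 0 lower, with a median of 1.02 (3.22 in WT), and the diet effect was more negative in KO than in WT for 19. In whole liver, fewer or more cells of a type and less or more RNA per cell cannot be told apart. Gpnmb (ENSMUSG00000029816, chromosome 6 from 49036546 to 49070929), a lysosomal glycoprotein of these cells, was at 75.6 and 73.2 CPM in KO chow and 657, 560.2 and 676 CPM in KO CDAHFD. The groups were well apart, with a log2 change of 3.08 (SE 0.23, adjusted p = 2.84e-05). WT chow was at 0.0917 to 0.349 CPM and WT CDAHFD at 559 to 796 CPM, so the CDAHFD levels of both genotypes overlap and the chow levels do not. Trem2, the lipid-sensing receptor, rose from 19.8 and 17.9 CPM to 71.4, 68.3 and 61.9 CPM (1.83, SE 0.21, adjusted p = 7.24e-04), Mmp12, an elastase, from 79.7 and 143 CPM to 392, 381 and 448 CPM (1.87, SE 0.22, adjusted p = 8.71e-04), and Atp6v0d2 by 2.3. Without KO chow replicate 1 or 2, 7 of the 22 were called.

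Genes of resident Kupffer cells lay lower. All 16 were below 0 (15 with library size as the only scaling), with a median of -0.90, and 2 were called lower (Timd4 and Slc40a1). In WT the median of the list was -0.16, with 3 called higher and 4 lower. Timd4, which marks long-lived Kupffer cells of embryonic origin, was at 13.7 and 17.4 CPM in KO chow and 1.36, 2.59 and 0.428 CPM in KO CDAHFD (-3.42, SE 0.51, adjusted p = 0.00314), with -4.57 in WT (difference 1.15, adjusted p = 0.283). Clec4f and Vsig4 were lower in every KO CDAHFD library but not called (-1.15, adjusted p = 0.125, and -0.93, adjusted p = 0.117), with their lowest values in KO CDAHFD replicate 3. The summed level of the list was 1604 and 1883 CPM in KO chow and 773.1 to 1254 CPM in KO CDAHFD. Of 20 genes of monocytes and dendritic cells 4 were called higher (1 without KO chow replicate 1 or 2), with summed levels of 340.7 and 368.5 CPM in KO chow and 443.3 to 476.7 CPM in KO CDAHFD. The list was split, with 11 genes above 0, 9 below and a median of 0.14 (1.91 in WT). Among its called genes, Itgax (CD11c) rose from 15.9 and 19.6 CPM to 59.9, 54.4 and 76.5 CPM (1.84, SE 0.26, adjusted p = 0.00231). Cx3cr1, the fractalkine receptor, rose by 1.5 (adjusted p = 0.0325), and its ligand Cx3cl1, from the chemokine list, by 1.43 (adjusted p = 0.0328). The calls of Cx3cr1 and Cx3cl1 were each lost in 9 of the 20 alternatives. Il7r, from the list of T and NK cells, rose by 2.17 (adjusted p = 0.00231) and Gzma (granzyme A) of the same list fell by 1.38.

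Lysosomal genes were called higher in 8 of 46 and lower in 1 (3 to 8 higher with a KO library left out), Cd68 and Ctsd (cathepsin D) among them (1.14 and 0.73). Few inflammatory mediators were called, and few of all genes tested were (3.76% higher and 2.44% lower). The low counts for cytokines and inflammasome genes are therefore no result about these lists. Of 38 cytokines and innate receptors 26 lay above 0 and 12 below, and only Clec7a, the beta-glucan receptor Dectin-1, was called (1.03). In WT 32 were called higher. Tnf and Il1b were not called in KO (0.55, adjusted p = 0.265, and -0.51, adjusted p = 0.31). None of 24 inflammasome genes was called by edgeR (4 higher and 1 lower at an unadjusted p under 0.05, 3 higher by DESeq2). Interferon-induced genes had 3 of 42 lower, with 0 without KO chow replicate 1 and 6 without replicate 2. Cxcl9, a chemokine induced by interferon gamma, was at 71.4 and 41.8 CPM in KO chow and 14.3, 15.9 and 14.3 CPM in KO CDAHFD. It fell by 1.93 (SE 0.28, adjusted p = 0.00275) into the range of the WT libraries (7.75 to 18.6 CPM). Gbp2, a guanylate-binding protein, fell by 1.17 (adjusted p = 0.027). Neutrophil genes gave no call by edgeR in 13 tested, at summed levels between 25.5 and 39.2 CPM in KO chow and between 28 and 33.8 CPM in KO CDAHFD, with 0 at an unadjusted p under 0.05 and 0 by DESeq2.

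Genes of the bile ducts rose. Of 24 cholangiocyte and ductular genes 13 were called higher and 0 lower, with a median of 1.40 (2.46 in WT), and their summed level was between 441.3 and 544.5 CPM in KO chow, between 914.7 and 1388 CPM in KO CDAHFD and between 648.9 and 916 CPM in WT CDAHFD. Epcam, an epithelial adhesion molecule of ducts, rose from 11.3 and 6.33 CPM to 25.4, 33.2 and 38.3 CPM (1.88, SE 0.29, adjusted p = 0.00361), Cldn7, a tight junction protein, from 3.13 and 1.99 CPM to 8.24, 9.89 and 9.09 CPM (1.83, SE 0.27, adjusted p = 0.00286), and Pkhd1, the ciliary protein fibrocystin, by 1.71. Spp1 (osteopontin), which ducts and macrophages share, rose from 251 and 140.2 CPM to 500.0, 746 and 797 CPM (1.8). The keratins Krt19 and Krt7 did not overlap between the KO groups but were not called (1.43, adjusted p = 0.0632, and 1.56, adjusted p = 0.051). Without KO chow replicate 2, 4 of the 24 genes were called.

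Most genes of fibrosis lay above 0 in KO liver, and a minority were called higher. Above 0 were 28 of 33 collagen chains, 29 of 41 matrix genes and 36 of 44 stellate cell and TGF-beta genes. Of 33 collagen chains 5 were called higher and 0 lower (median 0.52, and 1.70 in WT), of 41 matrix proteases, inhibitors and crosslinkers 6 higher and 0 lower (median 0.48, and 2.36 in WT), and of 44 stellate cell and TGF-beta genes 7 higher and 1 lower (median 0.44, and 1.59 in WT). Without KO chow replicate 2 none of the collagen or stellate genes was called. Col4a5, a chain of basement membrane collagen, rose from 6.06 and 6.35 CPM to 12.5, 13.8 and 23.8 CPM (1.43, SE 0.27, adjusted p = 0.0102) and Col6a3, a chain of filamentous collagen VI, from 66.2 and 53.4 CPM to 129.9, 125 and 202 CPM (1.35, SE 0.36, adjusted p = 0.0441), highest in KO CDAHFD replicate 3 in both cases. Col1a1, the main fibrillar collagen of scars, was at 180.0 and 149 CPM and 273, 300.1 and 394 CPM, without overlap but not called (0.97, SE 0.53, adjusted p = 0.3), against 4.86 in WT, where chow was between 4.43 and 20.3 CPM. Timp2, an inhibitor of matrix proteases, rose by 1.2, Adamts5, an aggrecanase, by 1.11 and Pdgfb, a growth factor for stellate cells, by 1.18. Timp1, another protease inhibitor, was not called (0.64, adjusted p = 0.237). Col27a1, a chain of a fibrillar collagen, rose in KO (0.95) and fell in WT (-2.76), with KO CDAHFD at 14.8, 14.8 and 19.7 CPM and WT CDAHFD at 11.1 to 13.4 CPM.

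**Figure D4:**
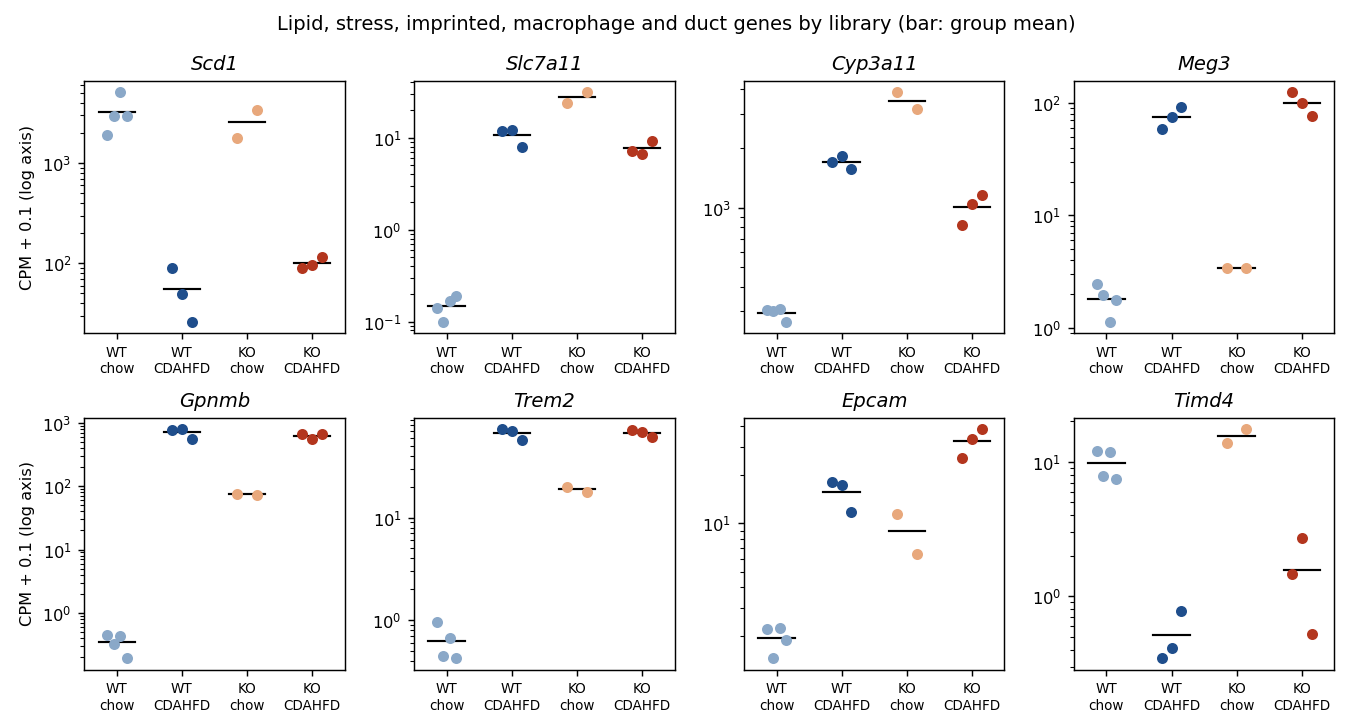
CPM of Scd1, Slc7a11, Cyp3a11, Meg3, Gpnmb, Trem2, Epcam and Timd4 in each of the 12 libraries on a log axis (0.1 added), with 1 point per library and a bar at the group mean. In each panel the 2 KO chow and the 3 KO CDAHFD libraries do not overlap, KO CDAHFD being lower for Scd1, Slc7a11, Cyp3a11 and Timd4 and higher for the others.

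In amino acid metabolism 9 of 50 catabolic genes were called lower and 1 higher (median -0.26, and -1.10 in WT, where 46 were lower). With a KO library left out, 1 to 8 were called lower, with 1 without KO chow replicate 2. Acmsd, which diverts tryptophan away from NAD synthesis, fell from 78.2 and 76.8 CPM to 20.7, 23.8 and 16.3 CPM (-1.94, SE 0.28, adjusted p = 0.00256), more than in WT (-0.75, difference -1.18, adjusted p = 0.0319). Prodh (proline dehydrogenase) was the one to rise, from 50.8 and 49.3 CPM to 135, 136 and 125 CPM (1.4, SE 0.17, adjusted p = 8.71e-04), and fell in WT (-0.97). Within the urea cycle and ammonia list the parts moved apart, since the 3 genes called higher were the pericentral Rhbg, Glul and Slc1a2, and 4 of 16 fell (1 without KO chow replicate 2). Arg1 (arginase), Asl (argininosuccinate lyase) and Slc25a15, the mitochondrial ornithine carrier, fell, with log2 fold changes of -0.96, -0.83 and -0.91.

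Of 31 hepatocyte factors and secreted proteins 4 were called lower and 0 higher (median -0.33, and -0.97 in WT), from 0 to 9 of them with a KO library left out. Of the wider list of 33 hepatokines and genes of the IGF system 3 were called higher and 4 lower, and 1 in each direction without KO chow replicate 1 or 2. Hamp, which encodes the iron hormone hepcidin, was at 1312 and 1304 CPM in KO chow and 347, 604 and 314 CPM in KO CDAHFD. It fell by 1.63 (SE 0.28, adjusted p = 0.00601) without overlap, with -1.38 in WT. Alb fell by 0.74 (SE 0.19, adjusted p = 0.0421), Igf1 fell by 0.59 and the fibrinogen chain Fga fell by 0.79. Fst (follistatin, which binds activin) fell from 17.1 and 13.9 CPM to 4.41, 4.01 and 5.71 CPM (-1.72, SE 0.41, adjusted p = 0.0304) and rose in WT (1.1). Orm3, an acute phase orosomucoid, rose from 0.353 and 0.145 CPM to 3.08, 3.26 and 1.67 CPM (3.42, SE 0.48, adjusted p = 0.00231). None of 36 subunits of respiratory complex I was called by edgeR, although 35 lay below 0 (median -0.20, with 5 lower at an unadjusted p under 0.05 and 1 by DESeq2). With library size as the only scaling 18 lay above 0 and 18 below, and without KO chow replicate 1 15 above and 21 below. In WT all 36 were called lower (median -0.77).

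The other lists had at most 3 genes called in either direction. Of 30 targets of p53 and cell cycle inhibitors 3 were called lower, where 19 were called higher in WT. Of 28 early response factors 1 was called higher, where 22 were in WT. Over all genes tested, 3.76% were called higher and 2.44% lower in KO, and 26.1% higher in WT. The low KO count of early response factors is therefore no result about that list. Sterol synthesis and the LDL receptor axis gave 1 of 24 higher (median 0.27), cholesterol export and LXR targets 2 of 17 higher, and bile acid and anion transporters 2 of 21 higher and 1 lower. The lists of nuclear receptors (2 of 33 higher), glucose metabolism (1 of 39 higher and 2 lower), ferroptosis regulators (3 of 26 lower), the unfolded protein response (1 of 32 lower) and acute phase proteins (1 of 30 higher and 3 lower) held some genes named above. Chemokines and their receptors gave 3 of 41 higher and 1 lower, T and NK cells 1 of 29 in each direction, B cells 1 of 21 lower and antigen presentation 1 of 28 lower. No gene was called by edgeR for DNA replication (44 tested, 7 lower at an unadjusted p under 0.05, 1 lower by DESeq2), endothelial cells (26 tested, 6 lower and 2 lower by DESeq2) or DNA methylation (25 tested, 7 higher and 2 lower, 5 higher and 1 lower by DESeq2). The clock list gave none either (22 tested, 1 in each direction at an unadjusted p under 0.05, 0 by DESeq2). All 5 haemoglobin and red cell genes tested lay below 0 (5 at an unadjusted p under 0.05, 4 by DESeq2, 0 by edgeR after adjustment), with summed levels of 460.2 and 251.1 CPM in KO chow and 170.2 to 204.7 CPM in KO CDAHFD. The part of blood content in the other changes was not tested.

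Among the largest increases were the non-coding RNAs of an imprinted cluster on chromosome 12. Meg3 (chr12:109541001-109571726, plus strand) was at 3.32 and 3.3 CPM in KO chow and 124, 101 and 76.3 CPM in KO CDAHFD. It rose by 4.92 (SE 0.32, adjusted p = 1.46e-05), with 5.46 in WT (difference -0.54, adjusted p = 0.324), and WT chow was between 1.03 and 2.33 CPM. Rian and Mirg, downstream on the same strand, rose by 4.41 and 4.73, and Mirg had 2 and 6 counts in KO chow and 128, 104 and 105 counts in KO CDAHFD. All 3 are made from the maternal chromosome and host many small RNAs, which poly-A libraries do not measure. Of 99 genes annotated from Dlk1 to Dio3, 6 were tested and these 3 were called. Dlk1, a gene of the paternal chromosome, was not called (0.51, SE 0.62, adjusted p = 0.675). The 250 bases before the RefSeq start of Meg3 (chr12:109540746-109540995, GRCm38.p6, plus strand) are shown here. They hold a match to the motif of the cAMP response element (TGACGTCA, in capitals, 57 bases before the start). This motif is in 1.55% of all such windows on either strand, and here too a match is a description of the letters and not a binding site.
Meg3: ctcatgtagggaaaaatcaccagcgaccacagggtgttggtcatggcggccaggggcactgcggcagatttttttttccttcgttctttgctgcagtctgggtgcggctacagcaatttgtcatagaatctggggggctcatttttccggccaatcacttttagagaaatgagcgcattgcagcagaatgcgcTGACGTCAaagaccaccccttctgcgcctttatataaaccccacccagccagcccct

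Major urinary protein (Mup) genes are a large part of the male liver's secretory output, and of 36 Mup and other sex-biased genes 4 were called higher and 3 lower (1 higher without KO chow replicate 2 and 0 lower without replicate 1). Mup11 was at 0.245 and 0.0485 CPM in KO chow and 3.78, 5.64 and 2.59 CPM in KO CDAHFD (4.78, SE 0.84, adjusted p = 0.00736), while WT went from between 310.4 and 969 CPM to between 6.91 and 20.9 CPM (-5.52). The pseudogene Mup-ps16, with 0 counts in both KO chow libraries, was at least 29.6-fold higher in KO CDAHFD, against a floor of 3 counts per library. Mup genes share reads with each other, and Mup genes as a whole took 0.634% and 0.32% of the counts in KO chow and 0.355% to 0.596% in KO CDAHFD, where the groups overlap. Sult1e1 (estrogen sulfotransferase) rose from 0.435 and 0.436 CPM to 6.52, 6.66 and 7.52 CPM (3.97, SE 0.70, adjusted p = 0.00768) and Stac2, an adaptor protein gene, by 3.46. Among the largest decreases, Sertm1, a gene of a small membrane protein, had 144 and 148 counts in KO chow and 0, 3 and 4 counts in KO CDAHFD (-5.93, SE 0.66, adjusted p = 0.0017). Cyp17a1, a steroid hydroxylase, fell from 44 and 59.6 CPM to 4.44, 2.97 and 10.6 CPM (-3.11, SE 0.50, adjusted p = 0.00489), and Esm1 (endocan, a proteoglycan of activated endothelium) from 5.6 and 5.12 CPM to 0.412, 0.481 and 0.761 CPM (-3.27, SE 0.47, adjusted p = 0.00273). Serpina1e, an alpha-1-antitrypsin gene, fell from 3971 and 1962 CPM to 353, 668 and 163 CPM (-2.91), and its reads can be shared with its paralogs.

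The genotype gap on each diet puts these changes side by side. Over all 17358 genes, the median size of the log2 difference between KO and WT was 0.46 on chow and 0.16 on CDAHFD, and the gap was smaller on CDAHFD for 78.4% of genes. For the 101 genes called in opposite directions it was 2.61 on chow and 0.31 on CDAHFD. This is given as a description, since the same libraries enter the calls and the gaps. Of these 101 genes, 51 fell in KO and rose in WT, among them Cyp2b10, Cyp3a11, Slc7a11, H19 and Apoa4, and 50 rose in KO and fell in WT, among them Cyp2e1, Cyp2c50, Nr1i3, Prodh and Sult2a8. The most negative difference of the diet effect was that of Vmn2r3, a vomeronasal receptor gene, at -12.85 (adjusted p = 6.44e-06), a fitted value that depends on the prior count because WT chow had 0 counts. It was at 102 and 68.1 CPM in KO chow and 46.1, 58.1 and 26.8 CPM in KO CDAHFD (-0.96, adjusted p = 0.0811, not called) and at 11.6 to 14 CPM in WT CDAHFD. Sprr1a, a cornified envelope protein, fell from 15.9 and 16.4 CPM to 5.67, 5.64 and 2.71 CPM (-1.79, SE 0.31, adjusted p = 0.00682) where WT rose from at most 0.0459 CPM to between 6.68 and 10.6 CPM.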

How the data were processed

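The authors deposited read counts per Ensembl gene for the 12 libraries, whole numbers with no normalization. Per the submitters' processing notes, FastQC 0.11.5, STAR 2.7.3a, the build GRCm38 and DESeq2 were used. The counting program and annotation release are not given in the sources used here, and the libraries are non-directional. Groups and replicate numbers came from the labels, and each library was taken as 1 mouse. The study's methods give 3 mice in each group, its sources differ on the number of KO mice per diet, and the deposited column of KO chow replicate 2 carries the number 3, so which mice form the KO groups was not settled beyond the labels. Where libraries were not separate animals, p-values would measure only technical spread.

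Symbols and positions came from GENCODE M21 (94.08% of 55357 identifiers, 99.69% of counts). Genes were filtered with filterByExpr, which left 17358, and scaled by TMM, with factors of 1.026 to 1.037 in KO chow and 1.129 to 1.258 in KO CDAHFD. The 12 libraries were fitted together in edgeR 4.0.16 (R 4.3.3, quasi-likelihood, 4 group means), so that KO chow, with 2 libraries, shares the spread of the others. Adjusted p are Benjamini-Hochberg values over all genes tested, and calls have an adjusted p under 0.05. SEs are the size of the log2 fold change over the square root of F. No call was made on the 53 gene lists as sets. Each is given by its counts and median. The members, lists and tests were chosen with earlier results of these data known. Named genes are Ppara, the 12 largest changes in each direction (mean of at least 50 counts over the KO libraries and no overlap between KO groups), the defining and up to 4 most changed called members of each list per direction, genes of a list called in opposite directions in KO and WT, and the 6 largest differences in each direction. Of these, the ones described are given in the text, and Pkhd1 and Dlk1 were chosen after their values were seen. Genes whose overlapping neighbour held at least 10% of their counts, and close paralogs (Mup, Cyp2c, Cyp3a, Cyp4a, Ugt, Gsta, Acot), can exchange reads, which was not tested. Alternatives were DESeq2 1.42.0 (size factors, test), library size alone, no filter, only KO libraries, a clock score as a covariate, a replicate block and leaving out each library. The fit was tested on simulated data. The promoter windows are from RefSeq. Figures were drawn with matplotlib 3.10.9 in Python 3.11.15.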

Additional observations from a re-analysis of the deposited data

Results flagged for a closer look

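The diet effect differed between KO and WT liver for 4011 genes in edgeR's quasi-likelihood test of the difference, and for 77 of the 120 genes named, 24 with a more positive and 53 with a more negative effect in KO. The values are the log2 fold change in KO minus that in WT. For pericentral genes and the genes of the Cyp2c family the difference was Cyp2c37 6.19, Cyp2c54 5.46, Cyp2c50 4.64, Cyp2c55 -3.64, Slc1a2 3.23, Tbx3 2.84, Cyp2e1 2.79, Glul 2.63, Cyp1a2 2.53, Sp5 2.17, Cyp2c29 2.03 and Rhbg 1.90. For the other genes of xenobiotic metabolism it was Gsta1 -6.72, Sult2a8 5.18, Cyp3a11 -4.31, Nr1i3 2.59 and Ugt1a9 -2.44. Stress and oncofetal genes differed by Slc7a11 -9.60, H19 -8.52, Ly6d -8.05, Tff3 -4.98, Cbr3 -4.86, Abcc4 -3.58, Srxn1 -3.06, Hmox1 -2.74 and Afp -1.29. Genes of lipid and bile acid metabolism differed by Apoa4 -4.29, Cd36 -3.09, Cyp8b1 2.28, Acot1 -1.24, Fabp1 0.95, Hsd17b13 -0.91, Cyp4a32 -0.91, Ehhadh -0.82, Acox3 0.70 and Mttp 0.58. Macrophage, lymphocyte and mediator genes differed by Mmp12 -8.76, Gpnmb -8.34, Trem2 -5.16, Itgax -4.12, Atp6v0d2 -3.81, Clec7a -3.72, Cx3cr1 -3.48, Tnf -2.94, Cx3cl1 -2.67, Gbp2 -2.54, Il7r -2.38, Cxcl9 -2.26, Cd68 -2.15, Gzma -2.11, Il1b -1.51 and Ctsd -1.26. Duct and matrix genes differed by Timp1 -5.87, Col1a1 -3.88, Col27a1 3.72, Col6a3 -2.61, Pdgfb -2.28, Cldn7 -1.47, Spp1 -1.36, Adamts5 -1.26, Epcam -1.21 and Timp2 -1.14. Among the remaining genes it was Mup11 10.30, Esm1 -3.93, Fst -2.82, Stac2 -2.54, Prodh 2.37, Serpina1e 2.19, Rian -1.60, Acmsd -1.18, Arg1 1.13 and Asl 0.85. The differences of Vmn2r3 -12.85, Cyp2b10 -11.64, Sprr1a -11.17, Mup-ps16 11.17 and Sertm1 -10.85 are fitted against a group with a count of 0 or 1 in each library and depend on the prior count, so they are no measure of size. Other large differences, such as those of Slc7a11, H19, Gpnmb and Mup11, also rest on a group at very low levels, given above, so their sizes are rough.

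WT chow was the one group large enough for a test of outlying samples, and in 10 of 117 genes with a range a library lay further from the rest than Dixon's critical value. The nominal rate of about 1 in 20 is no yardstick here, since the genes were picked for their changes and share the same libraries. WT chow replicate 1 was high for Col1a1 (20.3 CPM against 4.43 to 4.72), Col4a5 (2.83 CPM against 1.83 to 1.97), Col6a3 (12.2 CPM against 4.54 to 5.37), Tff3 (3.57 CPM against 0.504 to 0.734), Ugt1a9 (39.6 CPM against 16.7 to 19.3). Replicate 2 was high for Mup-ps16 (7.02 CPM against 3.94 to 4.12), replicate 3 was low for Acly (265 CPM against 311 to 320.1), and replicate 4 was high for Fads1 (669 CPM against 581 to 591). Replicate 4 also held the only reads of Dlk1 (0.0917 CPM) and Sprr1a (0.0459 CPM) in the group, which puts both genes past the critical value whatever the count. These libraries bear on the WT comparison and, through the shared estimate of the spread, on the KO comparison.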

How the results depend on the processing

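The count of genes called in KO liver (1075) moved by more than 1.5 times under DESeq2's test (1904, 1234 higher and 670 lower), with only the 5 KO libraries (581, 420 and 161) and, chosen after seeing the data, with only the libraries whose clock score is above 0 (600, 336 and 264), which drops a library from each KO group. With library size as the only scaling the median of all genes shifted by 0.20, and 1245 genes were higher and 138 lower. With the clock score as a covariate 709 were lower. Over fits that each left out 1 library, WT libraries included, the count ran from 233 to 1437, with 156 to 887 higher and 77 to 550 lower. The lone KO chow library in 2 of these fits was assumed to vary as the other groups do. The counts were 677 without WT CDAHFD replicate 1, 459 without KO CDAHFD replicate 1 and 505 without KO CDAHFD replicate 3. Ppara ran from -0.06 to 1.33 over these fits. For the difference between KO and WT, library size alone gave 676 more positive and 4268 more negative, and fits that left out a library gave 887 to 1824 more positive. In WT, library size alone gave 9092 higher and 1170 lower. Dlk1 ran from -0.07, without KO chow replicate 2, to 1.42, and the medians of 20 of the 53 lists, each at most 0.27 in size in the reported fit, turned sign in 1 or more alternatives, among them lipid droplets (0.07), ferroptosis (0.03), p53 (0.09), choline (0.15) and hepatokines (0.12) under library size alone, Mup (0.16) and interferon (0.11) without KO chow replicate 1, the clock (-0.32) without KO CDAHFD replicate 3 and sterol synthesis (-0.02) with the libraries of a clock score above 0. The cause of these shifts was not tested.

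Whether replicate numbers pair the KO libraries cannot be told, since the deviations of the 2 KO chow libraries from their mean mirror each other. Deviations from the group means of KO libraries with the same number correlated at 0.053 and -0.242. With a replicate block the counts were 640 in KO (427 higher and 213 lower), 7797 in WT and 3137 for the difference, and Ppara was 0.21. Total counts were higher in KO chow (35475528 and 40201211) than in KO CDAHFD (33138414 to 34794822), and no alternative of depth was run.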
